A study of Arabidopsis thaliana with 12 samples.

Results

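A set of 54 *Arabidopsis* genes that the array annotation knows only by an AGI locus code was higher in wild-type (WT) seedlings at the end of a long night than in continuous light, and lower in the *pifq* mutant than in WT at the end of that night. AGI codes such as AT5G02580 give the chromosome and the order of a gene along it, and these genes carry no symbol on the platform. The members were chosen by their own values, from the mean of 3 log2 signals per group. A gene had to be at least 0.6 higher in WT SD than in WT LL, at least 0.6 lower in *pifq* SD than in WT SD, under 0.3 for *pifq* SD minus *pifq* LL, and at 6 or more in WT SD. The rule left out AT3G21330 and AT4G38825 by name. Of 14742 genes with only a locus code, 5144 had a WT SD mean of at least 6, 426 of these passed the first difference, 67 also the second and 54 all of them. Since these values chose the genes, the differences between the 4 groups are given below as a description, with no test.

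The groups were *pifq* SD, WT SD, *pifq* LL and WT LL, with 3 biological replicates of whole seedlings each and 1 AraGene 1.0 ST array per replicate. All seedlings were 3 days old and spent 2 days in short days (SD, 16 h of darkness after 8 h of white light at 85 µmol m-2 s-1) on medium without sucrose. SD seedlings stayed in SD for 1 additional day and LL seedlings were kept in white light instead, and both were harvested at 24 h, the end of the night or of the subjective night. WT was Col-0, and *pifq* is 1 line mutated in *PIF1*, *PIF3*, *PIF4* and *PIF5*. In such bulk samples, fewer cells of a type and less RNA per cell cannot be told apart.

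The phytochrome-interacting factors (PIFs) are basic helix-loop-helix transcription factors that light-activated phytochromes mark for degradation and that accumulate in darkness. Under short days they build up through the night and promote hypocotyl elongation before dawn. Their known targets include genes of auxin response, shade avoidance and cell wall loosening.

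The transcripts of the 3 mutated genes that could be named followed the genotype labels. *PIF3* was at 3.86, 3.89 and 3.10 in *pifq* SD, 7.64, 7.66 and 7.73 in WT SD, 3.74, 3.67 and 3.98 in *pifq* LL and 7.32, 7.10 and 7.17 in WT LL. Means for *PIF5* were 5.91 in *pifq* SD, 9.64 in WT SD, 6.44 in *pifq* LL and 9.83 in WT LL. *PIF1* averaged 6.74 in *pifq* SD, 8.35 in WT SD, 6.31 in *pifq* LL and 8.32 in WT LL, and no probe set could be named for *PIF4*. These 3 genes are named only through the gene list of the study. That list holds called genes, so that a gene unchanged in the comparisons of the study could not have been named. limma called each of the 3 lower in *pifq* in both light regimes. Of the tissue markers, RCA, the Rubisco activase of green tissue, was at 12.9 in *pifq* SD, 12.8 in WT SD, 13.2 in *pifq* LL and 13.2 in WT LL, and the root gene PYK10 at 13.0, 13.0, 13.2 and 13.3 in the same groups. EXPA7, a root hair expansin, was at 7.47, 7.61, 7.42 and 7.29, and FAMA, a regulator of guard cells, at 6.25, 5.85, 6.32 and 6.42. WT SD relative to WT LL was thus 0.32 in EXPA7, -0.25 in PYK10 and -0.57 in FAMA. MUTE, a regulator of the stomatal lineage, lay under the array medians and was the only 1 of the 5 measured markers called, at -0.81 for WT SD minus WT LL. The part of cell composition in the members' differences was not tested.

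The mean over the 54 members was 6.57, 6.33 and 6.58 on the *pifq* SD arrays, 7.90, 7.70 and 7.70 on the WT SD arrays, 6.64, 6.56 and 6.51 on the *pifq* LL arrays and 6.67, 6.57 and 6.75 on the WT LL arrays. The other 3 groups lay between 6.33 and 6.75, under WT SD, and for WT LL and *pifq* SD the rule sets this order. Array medians over all probe sets ran from 5.0 to 5.12. Per gene, WT SD minus WT LL had a median of 0.96 and ran from 0.60 to 2.39, against a median of 0.06 over all locus-only genes at the same WT SD level. The median of *pifq* SD minus WT SD was -1.12, from -3.28 to -0.61, against -0.01 over the same genes. The SD arrays of WT enter both differences, so that an array error there moves them together.

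**Figure D1:**
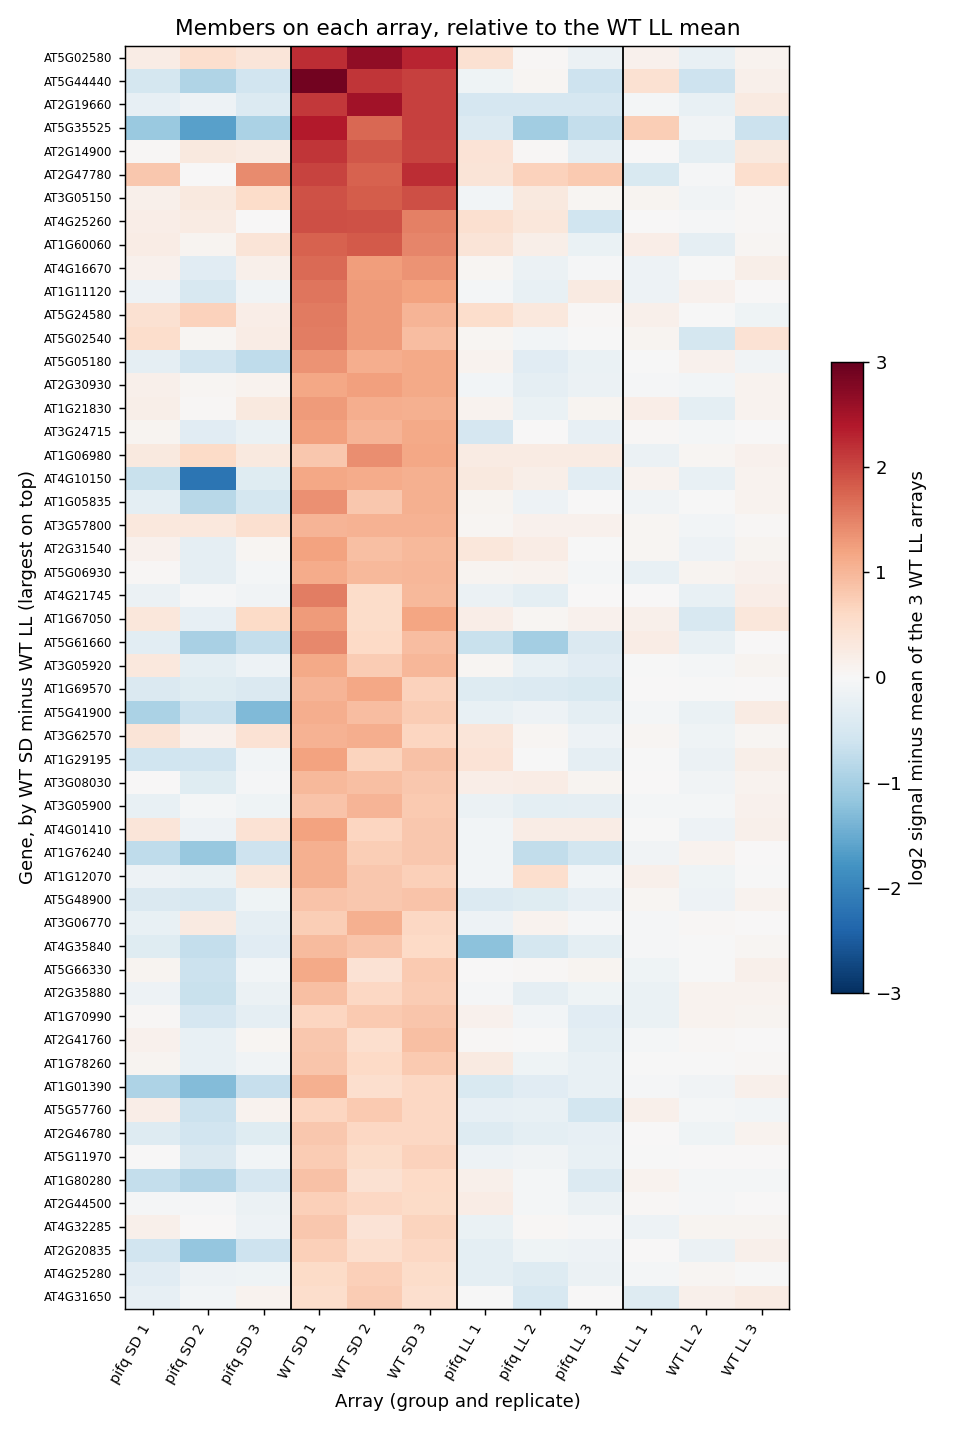
Log2 signal of each of the 54 members (rows, by WT SD minus WT LL) on each of the 12 arrays (columns, *pifq* SD, WT SD, *pifq* LL and WT LL), shown as the difference from the mean of the 3 WT LL arrays. The 3 WT SD columns are red throughout, while the *pifq* SD columns run from red in AT2G47780 to blue in AT4G10150.

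Over the fit of 38228 probe sets, 3.15% were called higher in WT SD against WT LL (adjusted p under 0.05 with a difference of 1.5 fold or more), and 51 of the 54 members were among them. The other 3 were AT4G10150, AT5G57760 and AT4G31650. Against WT SD, 0.845% of probe sets were called lower in *pifq* SD, with 43 members among them. The 3 WT SD arrays lay above the 3 WT LL arrays in all 54 members, and in 13.8% of all probe sets. They lay above the 3 *pifq* SD arrays in 53 members, and in 6.7% of all probe sets. The exception was AT1G67050, at 6.13, 5.54 and 6.35 in *pifq* SD and 7.06, 6.34 and 6.97 in WT SD. These counts follow from how the genes were chosen, and the count for *pifq* SD was 13 when only those 6 arrays were fitted, where 67 of all probe sets were called either way in place of 551.

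**Figure D2:**
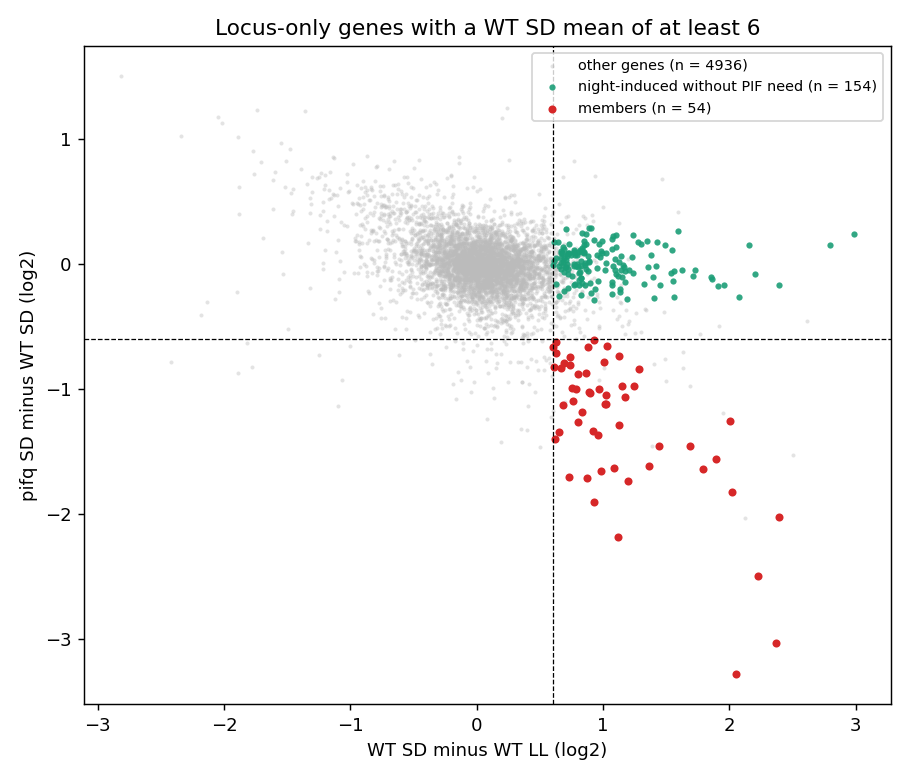
WT SD minus WT LL (x axis, log2) against *pifq* SD minus WT SD (y axis, log2) for the 5144 locus-only genes with a WT SD mean of at least 6, with dashed lines at 0.6 and -0.6. The 54 members lie in the lower right corner, together with the 13 genes that failed only on *pifq* SD minus *pifq* LL. The 154 genes chosen for a like SD level in both genotypes lie within 0.3 of 0 on the y axis by definition.

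The largest WT SD minus WT LL belonged to AT5G02580, described only as a plant protein of unknown function. It was at 4.67, 4.95 and 4.81 in *pifq* SD, 6.66, 7.12 and 6.73 in WT SD, 4.90, 4.48 and 4.28 in *pifq* LL and 4.58, 4.22 and 4.54 in WT LL. WT SD stood apart from all other groups, by 2.39 ± 0.23 over WT LL (pooled SD, n = 3 arrays per group). All *pifq* SD arrays also lay above all WT LL arrays, with means of 4.81 and 4.45. The files give no detection calls, so that for signals under the array medians, as in the other 3 groups of this gene, no fold is given. The largest difference between the genotypes in SD was that of AT5G35525, which encodes a PLAC8 family protein, a cysteine-rich family. Its signal was 2.84, 2.32 and 3.01 in *pifq* SD, 6.35, 5.68 and 6.0 in WT SD, 3.55, 2.92 and 3.24 in *pifq* LL and 4.71, 3.87 and 3.31 in WT LL. All *pifq* SD arrays lay under all WT LL arrays, *pifq* SD minus WT SD was -3.28, and the pooled SD of 0.46 was among the highest of the members.

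The other genes grouped here under a family of unknown role included AT1G76240, with a DUF241 domain. It was at 4.53, 4.15 and 4.67 in *pifq* SD, 6.36, 6.03 and 6.11 in WT SD, 5.21, 4.56 and 4.74 in *pifq* LL and 5.19, 5.39 and 5.29 in WT LL. Its *pifq* SD arrays, too, were under all WT LL arrays. AT5G11970 had the smallest differences of these 4 genes, 0.66 for WT SD minus WT LL and -0.83 for *pifq* SD minus WT SD. Without *pifq* SD replicate 2, the lowest of its group, *pifq* SD minus WT SD was -0.70.

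The 7 members grouped here as enzymes ran from 0.61 to 2.37 for WT SD minus WT LL and from -3.03 to -0.71 for *pifq* SD minus WT SD. AT5G44440 encodes a flavoprotein of the berberine bridge enzyme family, whose members oxidise alkaloids, sugars or monolignols. It was at 4.46, 4.09 and 4.40 in *pifq* SD, 7.88, 7.13 and 7.03 in WT SD, 4.85, 5.03 and 4.36 in *pifq* LL and 5.45, 4.36 and 5.14 in WT LL. WT SD minus WT LL was 2.37 and *pifq* SD minus WT SD was -3.03. The difference of 0.43 between *pifq* LL and *pifq* SD was of the size of its pooled SD of 0.42.

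In 3 further enzymes all *pifq* SD arrays lay under both LL groups. AT1G01390, a UDP-glycosyltransferase, belongs to a family that attaches sugars to small molecules such as hormones and phenolics. It was at 6.47, 6.09 and 6.71 in *pifq* SD, 8.46, 7.91 and 8.02 in WT SD, 6.93, 7.05 and 7.18 in *pifq* LL and 7.36, 7.29 and 7.56 in WT LL. The *pifq* SD arrays were the lowest of the 12. AT5G41900, an alpha/beta-hydrolase, was at 6.13, 6.44 and 5.75 in *pifq* SD, 8.18, 8.01 and 7.85 in WT SD, 6.86, 6.94 and 6.80 in *pifq* LL and 7.04, 6.90 and 7.32 in WT LL. A second alpha/beta-hydrolase, AT1G80280, was at 7.46, 7.30 and 7.68 in *pifq* SD, 9.06, 8.64 and 8.78 in WT SD, 8.33, 8.12 and 7.78 in *pifq* LL and 8.28, 8.13 and 8.12 in WT LL. In both hydrolases all *pifq* SD arrays were below all *pifq* LL arrays, with differences of -0.76 in AT5G41900 and -0.60 in AT1G80280. The remaining 3 enzymes, the Rossmann-fold protein AT5G02540, the nucleoside triphosphate hydrolase AT4G25280 and the O-fucosyltransferase AT2G44500, had *pifq* SD minus WT SD of -0.98, -0.82 and -0.71.

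The 9 members grouped here as cell wall or extracellular proteins had medians of 0.89 for WT SD minus WT LL and -1.05 for *pifq* SD minus WT SD. AT2G14900 encodes a gibberellin-regulated protein, one of the small cysteine-rich secreted peptides also known as GASA proteins. Its values were 6.04, 6.30 and 6.27 in *pifq* SD, 8.16, 7.88 and 8.04 in WT SD, 6.42, 6.04 and 5.74 in *pifq* LL and 6.03, 5.71 and 6.30 in WT LL. The 3 groups other than WT SD overlapped one another, and WT SD was 4.05-fold above WT LL. AT4G25260 encodes an inhibitor of invertases or of pectin methylesterases, enzymes that demethylate wall pectin. It was at 5.52, 5.58 and 5.36 in *pifq* SD, 7.28, 7.25 and 6.85 in WT SD, 5.82, 5.66 and 4.75 in *pifq* LL and 5.34, 5.30 and 5.37 in WT LL. Here *pifq* LL replicate 3 was lower than the other 2, and without it *pifq* LL minus WT LL was 0.41 in place of 0.07.

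AT2G31540, a GDSL-type lipase or acylhydrolase, was at 5.24, 4.86 and 5.19 in *pifq* SD, 6.34, 6.02 and 6.09 in WT SD, 5.47, 5.34 and 5.11 in *pifq* LL and 5.18, 4.98 and 5.21 in WT LL. AT5G61660, a glycine-rich protein, was at 4.92, 4.27 and 4.52 in *pifq* SD, 6.67, 5.84 and 6.16 in WT SD, 4.57, 4.23 and 4.81 in *pifq* LL and 5.46, 5.0 and 5.24 in WT LL. Both *pifq* groups of AT5G61660 lay under all WT LL arrays, with *pifq* LL minus WT LL at -0.70. The pectin lyase-like proteins AT5G48900 and AT3G06770, of a fold that pectin-degrading enzymes share, had WT SD minus WT LL of 0.83 and 0.80. AT3G08030 (DUF642), the hydroxyproline-rich glycoprotein AT4G01410 and the proline-rich protein AT1G70990 completed this group, at 0.89, 0.88 and 0.75. By its description AT3G08030 is of unknown function.

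The 9 members grouped here under signalling or protein turnover had medians of 1.11 for WT SD minus WT LL and -1.29 for *pifq* SD minus WT SD. AT2G19660, with a cysteine- and histidine-rich C1 domain, was the brightest of the 12 members with the largest WT SD minus WT LL. It was at 7.62, 7.71 and 7.47 in *pifq* SD, 9.99, 10.39 and 9.91 in WT SD, 7.38, 7.37 and 7.37 in *pifq* LL and 7.82, 7.66 and 8.14 in WT LL. WT SD was 4.67-fold above WT LL and 5.65-fold above *pifq* SD, and all *pifq* LL arrays were under all WT LL arrays, with a difference of -0.50. AT1G60060, related to the WNK kinases, was at 5.67, 5.55 and 5.85 in *pifq* SD, 7.22, 7.31 and 6.92 in WT SD, 5.86, 5.62 and 5.25 in *pifq* LL and 5.65, 5.20 and 5.53 in WT LL. AT4G16670, with a region similar to a pleckstrin homology domain, which in other proteins binds membrane lipids, was at 5.87, 5.42 and 5.91 in *pifq* SD, 7.46, 7.02 and 7.10 in WT SD, 5.81, 5.58 and 5.73 in *pifq* LL and 5.59, 5.75 and 5.92 in WT LL. In AT1G60060 and AT4G16670 the 3 groups other than WT SD overlapped.

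The members AT4G10150 and AT4G35840 encode RING/U-box proteins, a class that includes E3 ubiquitin ligases. AT4G10150 was at 4.25, 2.73 and 4.55 in *pifq* SD, 6.08, 6.02 and 5.97 in WT SD, 5.21, 5.08 and 4.59 in *pifq* LL and 5.02, 4.70 and 5.01 in WT LL. Its *pifq* SD replicate 2 was by far the lowest, and without that array *pifq* SD minus WT SD was -1.63 in place of -2.18, and *pifq* SD minus *pifq* LL was -0.56 in place of -1.12. AT4G35840 was at 6.56, 6.22 and 6.58 in *pifq* SD, 7.88, 7.75 and 7.53 in WT SD, 5.70, 6.39 and 6.64 in *pifq* LL and 6.88, 6.92 and 6.97 in WT LL. Both *pifq* groups of AT4G35840 lay under WT LL. The kinase AT3G24715, the leucine-rich repeat protein AT5G66330 and the immunoglobulin E-set protein AT1G12070 had *pifq* SD minus WT SD of -1.29, -1.0 and -0.88.

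Of the 4 members of transport and trafficking, AT3G05150 encodes a transporter of the major facilitator superfamily, which moves sugars and other small solutes across membranes. It was at 5.97, 6.12 and 6.38 in *pifq* SD, 7.74, 7.65 and 7.75 in WT SD, 5.75, 6.12 and 5.87 in *pifq* LL and 5.91, 5.71 and 5.86 in WT LL. The pooled SD was 0.15, and WT SD was 3.71-fold above WT LL. AT5G24580, a heavy metal transport or detoxification protein, was at 5.19, 5.43 and 4.93 in *pifq* SD, 6.29, 6.01 and 5.77 in WT SD, 5.27, 5.05 and 4.77 in *pifq* LL and 4.89, 4.72 and 4.61 in WT LL. Its *pifq* SD arrays lay above all WT LL arrays, and *pifq* LL averaged 0.30 above WT LL. A second gene of that description, AT3G05920, and AT4G32285, with an ENTH/ANTH/VHS domain of the kind found in vesicle coat adaptors, had WT SD minus WT LL of 0.96 and 0.63.

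The 3 members grouped here as nuclear were the bHLH protein AT3G57800, the Dof-type zinc finger protein AT1G69570 and the PHD finger protein AT1G05835. AT3G57800, from the same DNA-binding superfamily as the PIFs, was at 8.08, 8.10 and 8.25 in *pifq* SD, 8.78, 8.81 and 8.81 in WT SD, 7.84, 7.89 and 7.91 in *pifq* LL and 7.83, 7.68 and 7.80 in WT LL. It had the smallest pooled SD of all members, 0.066, and its 4 groups did not overlap. AT1G69570 had *pifq* SD minus WT SD of -1.37 and *pifq* LL minus WT LL of -0.41. AT1G05835 had *pifq* SD minus WT SD of -1.63 and *pifq* SD minus *pifq* LL of -0.53.

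**Figure D3:**
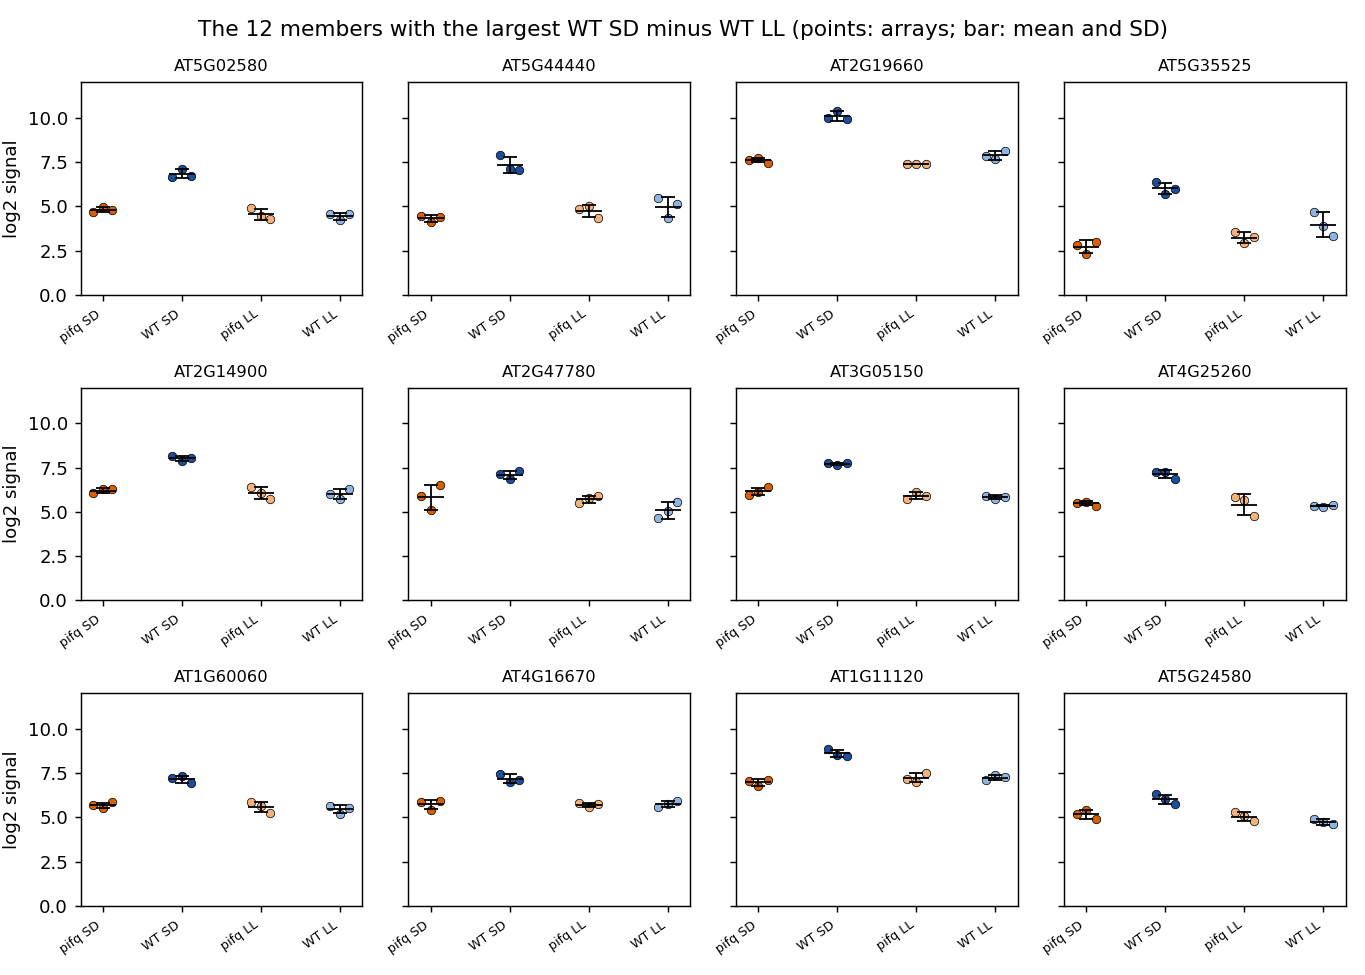
Log2 signals (y axis) of the 12 members with the largest WT SD minus WT LL in *pifq* SD, WT SD, *pifq* LL and WT LL, with a point for each array and a bar for the mean and SD of 3 arrays. WT SD lies above the other groups in each panel, and AT2G47780 has the widest *pifq* SD group, from 5.09 to 6.5.

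The 4 members grouped here under RNA binding or the cytoskeleton were bright, with pooled SDs of 0.10 to 0.20. AT3G05900, related to neurofilament proteins by its description, was at 9.13, 9.31 and 9.24 in *pifq* SD, 10.22, 10.39 and 10.15 in WT SD, 9.19, 9.07 and 9.09 in *pifq* LL and 9.30, 9.31 and 9.48 in WT LL. AT1G78260, with RNA recognition motifs, was at 9.17, 8.87 and 9.0 in *pifq* SD, 9.91, 9.68 and 9.88 in WT SD, 9.35, 8.95 and 8.87 in *pifq* LL and 9.08, 9.07 and 9.12 in WT LL. A further gene with these motifs, AT2G46780, had *pifq* SD minus WT SD of -1.13, and AT2G35880, of the TPX2 family of microtubule-associated proteins, had -1.10.

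No description was found in the study for 14 members, all of them protein coding in RefSeq. The brightest member of all was one of these, AT2G30930, at 9.34, 9.25 and 9.31 in *pifq* SD, 10.34, 10.42 and 10.33 in WT SD, 9.11, 8.93 and 9.02 in *pifq* LL and 9.15, 9.11 and 9.31 in WT LL. Its WT SD arrays stood clear of the other 9. AT2G47780 was at 5.89, 5.09 and 6.5 in *pifq* SD, 7.12, 6.85 and 7.30 in WT SD, 5.48, 5.78 and 5.87 in *pifq* LL and 4.63, 5.04 and 5.57 in WT LL. It had the highest *pifq* LL minus WT LL of the members, 0.63, with overlapping groups and a pooled SD of 0.45.

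AT1G11120 was at 7.08, 6.76 and 7.13 in *pifq* SD, 8.85, 8.51 and 8.45 in WT SD, 7.19, 7.01 and 7.52 in *pifq* LL and 7.10, 7.36 and 7.26 in WT LL. AT5G05180 was at 5.53, 5.22 and 5.03 in *pifq* SD, 7.15, 6.90 and 6.93 in WT SD, 5.91, 5.45 and 5.61 in *pifq* LL and 5.79, 5.92 and 5.69 in WT LL. Of these, only AT5G05180 had all *pifq* SD arrays under all WT LL arrays. AT2G20835 was at 8.48, 7.90 and 8.44 in *pifq* SD, 9.77, 9.57 and 9.67 in WT SD, 8.75, 8.93 and 8.90 in *pifq* LL and 9.06, 8.88 and 9.21 in WT LL. AT1G06980, the dimmest member in WT SD, was at 5.17, 5.46 and 5.16 in *pifq* SD, 5.69, 6.27 and 6.04 in WT SD, 5.13, 5.11 and 5.12 in *pifq* LL and 4.70, 4.92 and 5.01 in WT LL. The order of the groups thus differed between AT2G20835, where *pifq* SD was the lowest, and AT1G06980, where WT LL was. The other 8 without a description were AT1G21830, AT5G06930, AT1G67050, AT3G62570, AT1G29195, AT2G41760, AT5G57760 and AT4G31650, with WT SD minus WT LL of 1.15, 1.02, 1.01, 0.92, 0.92, 0.74, 0.69 and 0.60 in this order. Their *pifq* SD minus WT SD ran from -0.61 in AT3G62570 to -1.34 in AT1G29195. In AT5G57760 *pifq* SD replicate 2 was the lowest of its group, and without it *pifq* SD minus WT SD was -0.53 in place of -0.79.

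The members differed in how far *pifq* SD stood from WT LL. The PIFq contribution is WT SD minus *pifq* SD as a percentage of WT SD minus WT LL, and is 100% where *pifq* SD equals WT LL. Its median was 112.6%, with 38 members at 100% or more and 16 under it. The rule puts a lower limit of 0.6 on both parts of this ratio. Members with WT SD minus WT LL near 0.6 therefore cannot lie far under 100%, and the median and counts are a description. The highest values were 234% for AT1G01390, 226% for AT2G20835, 207% for AT1G80280 and 205% for AT5G41900. The lowest were 62.7% for AT2G47780, 63.9% for AT3G57800, 65.3% for AT1G06980 and 65.4% for AT5G24580. WT LL averaged 4.88 in AT1G06980 and 4.74 in AT5G24580, under the array medians, so that these ratios rest on dim signals. The members at the high end had small WT SD minus WT LL, from 0.62 to 0.93, which is the divisor of the ratio. Their *pifq* LL minus WT LL was -0.35, -0.19, -0.10 and -0.22 in the order named. The ratio sets *pifq* SD against WT LL, so that a genotype difference in LL enters it as well. AT5G61660, at 168%, and AT4G35840, at 159%, had *pifq* LL minus WT LL of -0.70 and -0.68. In these 2 genes *pifq* SD minus *pifq* LL was 0.03 and 0.21. All *pifq* SD arrays lay under all WT LL arrays in 14 members, against 13% of all probe sets, and above them in 6 members, against 13.8% of all probe sets. These shares are set in part by the choice of members.

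Within *pifq*, SD minus LL had a median of 0.03 over the members, with 29 above 0 and 25 below, and 42 within 0.3 of it. A comparison set of 154 locus-only genes was chosen by WT SD minus WT LL and *pifq* SD minus *pifq* LL of at least 0.6, *pifq* SD within 0.3 of WT SD, and a WT SD mean of at least 6, and its median of 0.80 is set by that choice. The rule put an upper limit on this difference and none below, and 12 members were at -0.3 or lower. The *pifq* SD arrays lay under the *pifq* LL arrays in 7 members, against 11.3% of all probe sets, and these were AT4G10150, AT1G05835, AT5G41900, AT3G08030, AT1G01390, AT1G80280 and AT2G20835. They lay above in 5 members, against 10.6%. These were AT2G19660, AT5G02540, AT2G30930, AT1G06980 and AT3G57800, with *pifq* SD minus *pifq* LL from 0.15 to 0.28. limma called 1 member, AT5G41900, lower in *pifq* SD than in *pifq* LL, against 1.85% of all probe sets.

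In LL, *pifq* minus WT had a median of -0.06 over the members, with 34 below 0 and 20 above, and 43 within 0.3. None of the 54 was called by limma, against 0.0183% of all probe sets, and 9 had an unadjusted p under 0.05, against 6.25%. The SD response, WT SD minus WT LL set against *pifq* SD minus *pifq* LL, was called larger in WT for 11 members, against 0.139% of all probe sets, but only for 0 to 5 with any 1 array left out, and the 4 group means in this term are those of the rule. The 3 *pifq* LL arrays lay under the 3 WT LL arrays in 12 members, against 5.57% of all probe sets, and above them in 2, AT1G06980 and AT3G57800, against 7.76%. The lowest differences were -0.72 for AT5G35525, -0.70 for AT5G61660, -0.68 for AT4G35840 and -0.50 for AT2G19660. Single arrays weighed on them, with -0.35 for AT5G35525 without WT LL replicate 1 and -0.41 for AT4G35840 without *pifq* LL replicate 1. The highest after AT2G47780 were 0.30 for AT5G24580, 0.25 for AT1G06980 and 0.18 for AT2G31540. These too moved by over 1.5 times with 1 array left out, to 0.40 for AT2G47780 without WT LL replicate 1, 0.18 for AT5G24580 without *pifq* LL replicate 1, 0.16 for AT1G06980 without WT LL replicate 1, and 0.10 and 0.11 for AT2G31540 without *pifq* LL replicate 1 and without WT LL replicate 2. WT LL also enters the rule, so these counts are not independent of it.

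The arrays of 1 replicate number at a time were left out when the thresholds of the rule were applied. The brightest probe set of a gene and the set of 5144 genes were still taken from all replicates. Members were also chosen with earlier results of these data known, so that the reading is a description and no independent test. The rule was applied to the other 2 replicates of each group and the same differences were read on the arrays left out. Leaving out replicate 1, 2 or 3 chose 44, 53 and 64 genes, of which 37, 42 and 50 were members. On the arrays left out, the median of WT SD minus WT LL was 1.01, 0.88 and 0.77, against 0.87, 0.95 and 1.02 on the arrays that chose. For *pifq* SD minus WT SD it was -1.08, -1.20 and -0.97, against -1.08, -1.0 and -1.15. WT SD was above both WT LL and *pifq* SD on the arrays left out in 44 of 44, 50 of 53 and 63 of 64 genes, while this was so in 39.6%, 33.4% and 29.6% of the 5144 locus-only genes at this level. The whole rule was met there by 31, 29 and 28 genes. Both differences of a gene use the same WT SD array left out, so that they are not independent of each other.

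**Figure D4:**
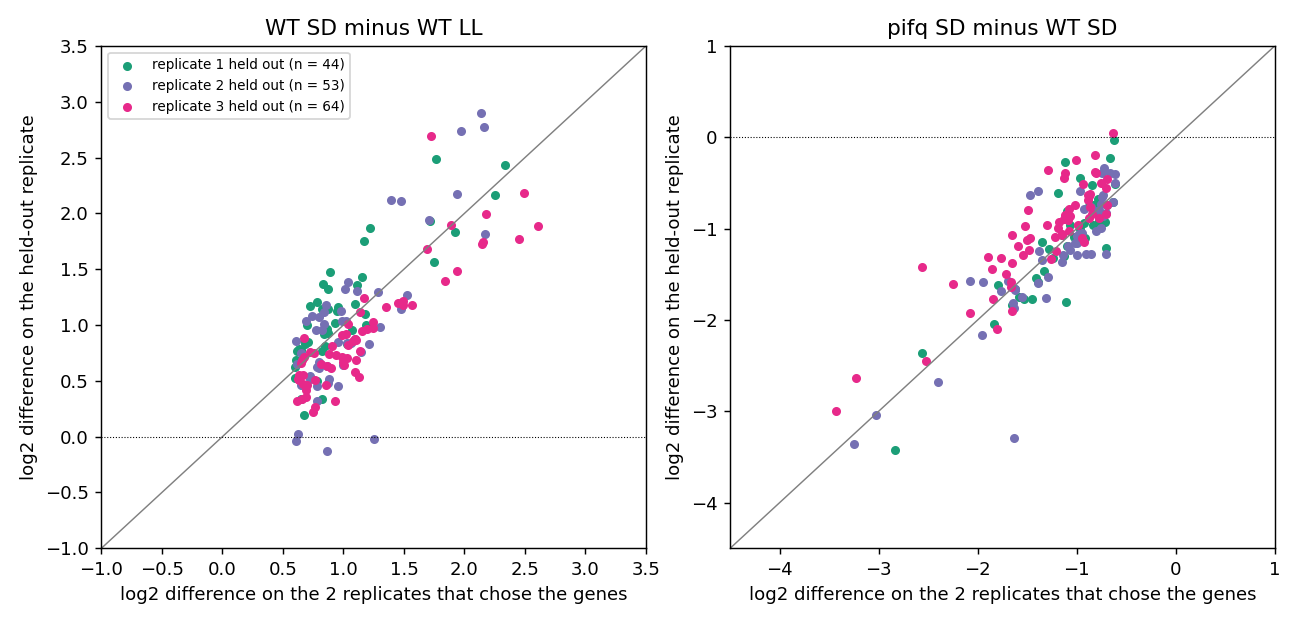
Log2 differences of the chosen genes on the 2 replicates that chose them (x axis) and on the replicate left out (y axis), for WT SD minus WT LL (left) and *pifq* SD minus WT SD (right), with a point for each gene, a colour for each replicate left out and a grey line of equal values. Nearly all points keep their sign, 44 of 44, 50 of 53 and 63 of 64 in both panels.

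The median pooled SD between replicates was 0.206 in the members, 0.167 in the 154 genes of the comparison set and 0.149 in the 5144 genes. These sets share only the level in WT SD, and the members are dimmer in the other groups, so that nothing is read from this order. It was largest in AT4G10150, at 0.524. With each of the 12 arrays left out in turn, 30 members met the rule in all 12 lists, and AT3G62570 was lost most often. Just inside the thresholds were AT4G31650 at 0.6001 for WT SD minus WT LL, AT3G62570 at -0.606 for *pifq* SD minus WT SD, AT1G06980 at 6.0 in WT SD and AT2G30930 at 0.28 for *pifq* SD minus *pifq* LL. Just outside were AT4G32350 at 0.5999, AT4G09160 at -0.598, AT5G67020 at 5.86 and AT3G60070 at 0.34. A further 13 genes failed only on *pifq* SD minus *pifq* LL, from 0.34 in AT3G60070 to 1.07 in AT1G73120.

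By their codes, 14, 10, 8, 9 and 13 members were on chromosomes 1 to 5, among 3860, 2252, 3029, 2162 and 3439 locus-only genes. In the order of protein-coding genes in RefSeq (TAIR10.1), AT3G05900 and AT3G05920 had 1 gene between them, as did AT4G25260 and AT4G25280, and AT5G02540 and AT5G02580 had 3. The genes next to a member were taken by position, but most have only a locus code themselves and had been screened and rejected by the rule, so that their values are not fully independent of it. Of 68 measured, limma called 5 higher and 3 lower in WT SD against WT LL, and between *pifq* SD and WT SD it called 3 lower and 1 higher in the mutant. Over all probe sets 3.15% were called higher and 3.42% lower in WT SD, and 0.845% lower and 0.596% higher in *pifq* SD. The medians of the 68 were 0.07 and -0.10.

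The neighbours called in both comparisons were 3. *IAA29* (AT4G32280), an auxin-response repressor and known PIF target, lies next to AT4G32285. Its log2 fold change was 2.04 ± 0.25 in WT SD relative to WT LL (SE, limma adjusted p = 0.000663) and -3.14 ± 0.25 for *pifq* SD against WT SD (limma adjusted p = 0.000216). AT1G12080 lies next to AT1G12070, at 2.12 ± 0.17 for WT SD relative to WT LL (limma adjusted p = 6.24e-05) and -2.04 ± 0.17 for *pifq* SD against WT SD (limma adjusted p = 0.000313). It is 1 of the 13 genes that failed only on *pifq* SD minus *pifq* LL, at 0.45. In both pairs the member had the smaller differences, 0.63 and -0.62 in AT4G32285 and 0.87 and -0.88 in AT1G12070. AT4G25290, next to AT4G25280, went the other way, at -1.70 ± 0.12 for WT SD relative to WT LL (limma adjusted p = 2.37e-05) and 0.81 ± 0.12 for *pifq* SD against WT SD (limma adjusted p = 0.00679). AT2G19650, next to AT2G19660, was under its WT LL level in WT SD, at -2.48 ± 0.33 (limma adjusted p = 0.000977).

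**Figure D5:**
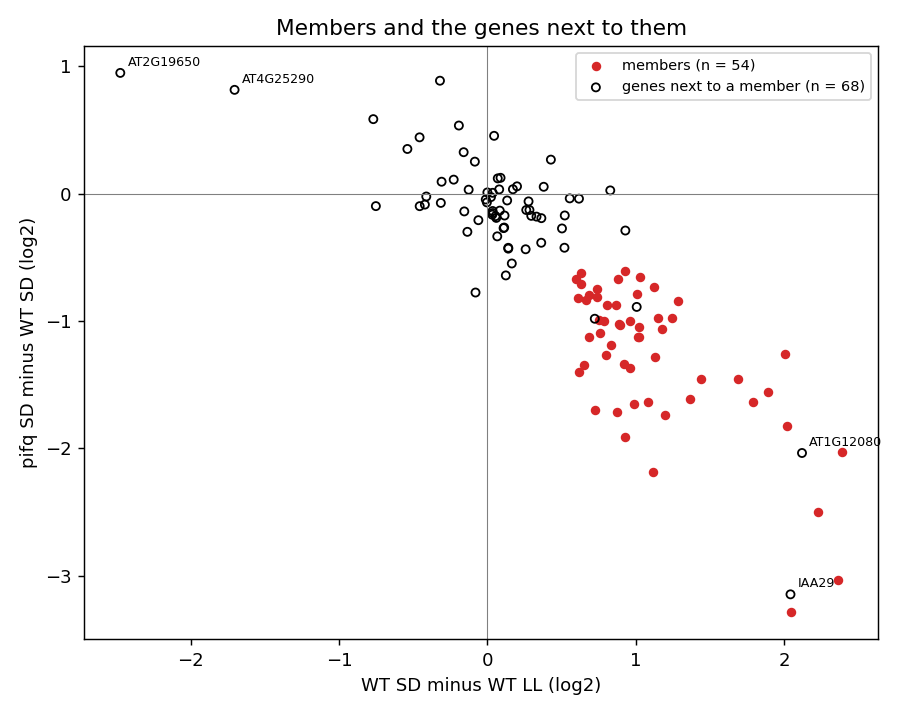
WT SD minus WT LL (x axis, log2) against *pifq* SD minus WT SD (y axis, log2) for the 54 members (red) and the 68 measured genes directly next to a member (open circles). Most neighbours lie around 0 on both axes, and *IAA29* and AT1G12080 lie among the members.

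Known PIF targets and shade genes with a symbol were listed for comparison. Of 18 listed PIF target and shade genes 17 were measured, and 14 were called higher in WT SD against WT LL and 0 lower, and 16 were called lower in *pifq* SD against WT SD. Most of these are named only through the gene list of the study, which holds called genes, and of the 3 named by the platform, *HAT2*, *FHL* and *IAA29*, 2 were called higher in WT SD and 3 lower in *pifq* SD. The medians over the 17 were 1.65 and -2.11, and those of the members 0.96 and -1.12. Both sets were chosen with earlier results of these data known, so that nothing is read from this order. *ST2A*, a sulfotransferase, had the largest WT SD relative to WT LL, 4.55, and *PIL1*, a bHLH gene of shade avoidance, the most negative difference of *pifq* SD from WT SD, -4.03. *FHL*, which helps phytochrome A into the nucleus, averaged 5.07 in *pifq* SD, 6.83 in WT SD, 4.69 in *pifq* LL and 4.79 in WT LL.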

How the data were processed

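Transcript levels of 12 whole-seedling samples were measured on AraGene 1.0 ST arrays. The authors deposited log2 signals. The submitters' processing notes name RMA (background correction, quantile normalization between arrays and summary per probe set) and no version. Quantile normalization gives all arrays the same overall distribution, so that a shift of most transcripts would not be seen. The values were used without further scaling. With 3 arrays per group, their number limits the precision.

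In the platform annotation, 16722 of the 38408 probe sets have 1 gene, 759 several and 20927 none. The brightest probe set of a gene was kept, which left out 180, and 38228 were fitted. No table marks control probe sets, and none were removed. Among the fitted probe sets 7102 share all 12 values with another, and no member does. Gene descriptions and the names of some listed genes came from the gene list of the study (Dataset S1), whose columns of fold changes and p values were not used. The medium is MS in the labels and GM in the methods.

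limma 3.58.1 in R 4.3.3 fitted 1 mean per group with a moderated variance, and calls needed 1.5 fold or more and p under 0.05 after Benjamini-Hochberg adjustment over all probe sets. The methods name the error-weighted analysis of variance of Rosetta Resolver, which limma replaces here. Adjusted p values come from limma. The fit and the rule were tested on simulated data. Python 3.11.15, pandas 2.3.3, numpy 2.4.6 and matplotlib 3.10.9 were used.

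Members and lists were chosen with earlier results of these data known, and roles were assigned after the members were seen. Values per array are given for the 12 members with the largest WT SD minus WT LL, the 12 with the largest fall in *pifq* SD, the 4 with the highest and lowest PIFq contribution, the 4 brightest and the 4 with the highest and lowest *pifq* LL minus WT LL, together 27 genes. The values of 1 member are not reported here. The other 27 had WT SD minus WT LL of 0.60 to 1.24. The pathway list holds known PIF target and shade genes, and the marker lists cover photosynthetic tissue, root, epidermis and stomata, seed storage and flower, of which the last 2 had no named probe set. Alternatives were array centring, a filter on dim probe sets, other fits and variance models, other thresholds of the rule and each array left out.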

Additional observations from a re-analysis of the deposited data

Results flagged for a closer look

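The SD response, WT SD minus WT LL compared with *pifq* SD minus *pifq* LL, differed between the genotypes for 11 of the 54 members by the interaction term of limma, against 0.139% of all probe sets called in that direction. They were AT5G02580, AT5G44440, AT2G19660, AT2G14900, AT3G05150, AT1G11120, AT5G05180, AT1G05835, AT5G06930, AT5G41900 and AT3G08030. The rule uses all 4 group means in this term, so that the count is a description, and it was 0 to 5 with any 1 array left out. The difference between the responses ran from 0.45 in AT5G57760 to 2.80 in AT5G44440 and was above 0 in all 54 members by construction.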

How the results depend on the processing

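Of the counts of members called, that for the difference of the SD response depended most on the setting, from 11 to 27 with a filter on dim probe sets, 26 with a trended and robust variance and 4 with the replicate block, and to 0 to 5 with an array left out. Over all probe sets the count moved with it, 59 at the setting reported, 219 with the filter, 201 with the trended variance, 35 with the block and 6 to 50 with an array left out. The causes of these shifts were not tested. The count lower in *pifq* SD than in WT SD was 43, was 45 after centring, 49 with the filter, 48 with the trended variance and 13 in a fit of those arrays alone, and ran from 31 to 41 with an array left out. In the fit of those arrays alone 67 of all probe sets were called either way in place of 551. The count called in *pifq* SD relative to *pifq* LL, 1, was 4 with the filter and with the trended variance, 0 after centring, in a fit of those arrays alone and with the replicate block, and 0 to 1 with an array left out. For WT SD relative to WT LL the count of 51 ran from 44 to 52 under the other settings and from 35 to 52 with an array left out. For *pifq* LL relative to WT LL the count was 0 under every setting run. The median PIFq contribution of the members, 112.6%, was 105% without *pifq* SD replicate 2, within 105% to 119% over all arrays left out. The rule found 39 to 72 genes under other thresholds, levels, centring, probe choice and medians, and 45 to 62 with an array left out, lowest without WT SD replicate 1 and highest without WT SD replicate 2. No called result changed direction under the settings run.

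Replicate numbers did not pair the arrays in 3 comparisons, with correlations of their deviations from -0.07 to 0.05. Between *pifq* SD and WT SD the correlations were 0.15, 0.35 and 0.08 for replicates 1, 2 and 3. Those of replicates 1 and 2 were above the threshold of 0.1 set for pairing, and the main fit had no replicate block. With the replicate block 447 probe sets in place of 551 were called between *pifq* SD and WT SD, with 41 members in place of 43. The motif search in promoters was not run, since no promoter sequences were used here.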
